A study of Mus musculus with 6 samples.

Results

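Macrophages of the olfactory mucosa made up 375 of the 24830 cells kept from 6 single-cell RNA-seq libraries of the mouse main olfactory epithelium (MOE), or 1.51%. A cell was kept with at least 1000 unique molecular identifiers (UMIs, each counting 1 captured RNA molecule) and 500 detected genes. A kept cell was taken as a macrophage when its UMIs of *C1qa*, *C1qb* and *C1qc* summed to 5 or more, with fewer than 10 UMIs of *Omp*, fewer than 5 of *Cyp2g1* and none of *Cd79a*. *Omp* marks mature olfactory sensory neurons (OSNs), *Cyp2g1* sustentacular cells and *Cd79a* B lineage cells. The members were thus chosen by these 6 genes, so their levels, and those of any gene in macrophages against other cells, are given as a description with no test. Rule genes stayed among the genes fitted between swap and control, where nothing is concluded from them.

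There were 2 swap libraries, 2 control libraries, 1 *tetOP2* library and 1 *gg8tTA* library. The swap allele carries flag-tagged *Cbx1* (HP1β) with a STOP between loxP sites, followed by myc-tagged *Cbx5* (HP1α), in the *Cbx1* locus. A Cre recombinase exchanges HP1β for HP1α in the cells in which it is active, and the design uses a Cre active in the olfactory epithelium. The swap libraries carry the allele, written Cbx*/* in the labels, together with the Cre. Control replicate 1 is labelled as wild type with the Cre and control replicate 2 as Cbx*/* alone, so the controls lack either the allele or the Cre. The *tetOP2* library carries gg8-tTA, a driver active in the OSN lineage, together with tetOP2, and the *gg8tTA* library carries gg8-tTA alone. The labels give no age and name OSNs as the cell type of every library. The swap and control libraries are biological replicates by the study's methods, and p-values here measure the spread between these libraries. *Xist*, the RNA of the inactive X chromosome, had 743, 298 and 288 UMIs in the macrophages of swap replicate 1, *tetOP2* and *gg8tTA*, and the Y-linked *Ddx3y* had 99, 60 and 84 UMIs in those of swap replicate 2, control replicate 1 and control replicate 2. Each gene had 0 UMIs in the macrophages of the other libraries, so the swap libraries hold a female and a male and the control libraries males.

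Tissue macrophages are phagocytes that clear dying cells, present antigen on MHC class II and release cytokines. C1q, the recognition protein of the classical complement pathway, is built of the A, B and C chains encoded by *C1qa*, *C1qb* and *C1qc*, and much of it is made by macrophages. HP1 proteins bind histone H3 methylated on lysine 9 and help to compact heterochromatin. Macrophages arise from blood-forming lineages and not from the olfactory epithelium, and they serve here as cells of the same suspension in which the design does not ask for the swap.

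The 3 C1q genes lie next to each other on the minus strand of chromosome 4 (mm10), at chr4:136895917-136898803 for *C1qa*, chr4:136880129-136886187 for *C1qb* and chr4:136889804-136893065 for *C1qc*. The 250 bases before the start of *C1qb* and *C1qc* are shown because these genes defined the cells, and those of *Trem2* and *Aif1* because they ranked among the leading genes below. They were taken from RefSeq on GRCm38.p6, each 5′ to 3′ on the strand of its gene, at chr4:136886201-136886450, chr4:136892915-136893164, chr17:48346151-48346400 and chr17:35176053-35176302. Positions are counted from the RefSeq start, which for *C1qc* lies inside the gene span given above. Capitals mark GAGGAA, or TTCCTC where it lies on the other strand, the core bound by PU.1, the transcription factor encoded by *Spi1*.

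C1qb: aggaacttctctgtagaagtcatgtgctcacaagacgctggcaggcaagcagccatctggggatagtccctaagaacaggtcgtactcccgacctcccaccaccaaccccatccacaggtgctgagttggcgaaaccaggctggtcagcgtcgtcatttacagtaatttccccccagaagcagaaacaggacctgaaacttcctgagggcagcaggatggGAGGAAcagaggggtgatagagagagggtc
C1qc: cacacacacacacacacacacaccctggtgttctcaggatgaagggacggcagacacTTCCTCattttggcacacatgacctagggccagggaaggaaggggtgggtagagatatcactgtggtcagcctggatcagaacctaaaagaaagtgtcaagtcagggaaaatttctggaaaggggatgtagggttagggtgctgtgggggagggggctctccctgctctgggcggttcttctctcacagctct
Trem2: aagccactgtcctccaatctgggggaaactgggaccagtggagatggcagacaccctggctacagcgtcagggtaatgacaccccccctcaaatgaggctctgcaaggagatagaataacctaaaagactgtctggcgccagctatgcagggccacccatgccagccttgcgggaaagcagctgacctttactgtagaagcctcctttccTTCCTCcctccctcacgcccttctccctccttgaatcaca
Aif1: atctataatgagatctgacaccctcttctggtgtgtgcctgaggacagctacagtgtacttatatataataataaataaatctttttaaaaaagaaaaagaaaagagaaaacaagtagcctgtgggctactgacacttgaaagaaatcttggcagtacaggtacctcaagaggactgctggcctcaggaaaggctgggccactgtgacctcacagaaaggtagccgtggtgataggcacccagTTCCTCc

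The motif lay 30 bases before the start in *C1qb*, 193 in *C1qc*, 40 in *Trem2* and 7 in *Aif1*, counted to its first base. On either strand of the 250 bases it was present in 6986 of 27025 genes with a promoter entry (25.9%), in 8 of the 12 leading genes with an entry (66.7%) and in 9 of 15 genes of the macrophage identity list (60.0%). The 250 bases before *Cbx1* held no such match. A match is a stretch of letters and was not tested as a binding site.

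The libraries held 63277934 and 60729307 UMIs in swap, 58498968 and 59045808 in control, and 32005196 and 35298494 in *tetOP2* and *gg8tTA*. The macrophages were shallower than the kept cells as a whole. Per macrophage the median was 7351 and 6867 UMIs in the swap libraries, 5977 and 5602 in control, 6087 in *tetOP2* and 9253 in *gg8tTA*, against 9991 to 11543 in all kept cells. Their UMIs summed to 632351 and 697968 in swap, 574771 and 376856 in control, and only 176550 and 167982 in *tetOP2* and *gg8tTA*, whose values are therefore the least precise. Levels below are UMIs scaled to a sum of 1000000 per library and cell type (CPM) unless named otherwise, and they compare a gene between cells or libraries. The shallowest macrophage had 3981 UMIs in *tetOP2* and 3860 in *gg8tTA*, against 1000 to 1058 in the other libraries, and all barcodes of those 2 libraries passed the limits for kept cells.

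Most macrophages lay far from the C1q limit. The median C1q sum of a member was 75 and 44 UMIs in swap, 74 and 61.5 in control, 108 in *tetOP2* and 129 in *gg8tTA*, and 309 of the 375 (82.4%) had at least 20. Just inside the limit were 22 members with 5 to 9 C1q UMIs, and just outside were 10 kept cells with 3 or 4. The limits on *Omp*, *Cyp2g1* and *Cd79a* removed 42 of the 417 cells that passed on C1q. *Omp* was 0 in 323 members, 1 or 2 in 48 and 3 to 9 in 4. Barcodes of macrophages were not shared between libraries, and 8 of the members were among the 875 kept cells predicted as doublets.

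Macrophages were found in every library. They made up 86 of 5003 kept cells in swap replicate 1 (1.72%, 95% Clopper-Pearson interval 1.38 to 2.12) and 97 of 4947 in swap replicate 2 (1.96%, 1.59 to 2.39). Control replicate 1 held 92 of 5091 (1.81%, 1.46 to 2.21) and control replicate 2 held 58 of 4433 (1.31%, 0.995 to 1.69). The *tetOP2* library held 23 of 2563 (0.897%, 0.570 to 1.34) and the *gg8tTA* library 19 of 2793 (0.680%, 0.410 to 1.06). These intervals cover counting error only.

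**Figure D1:**
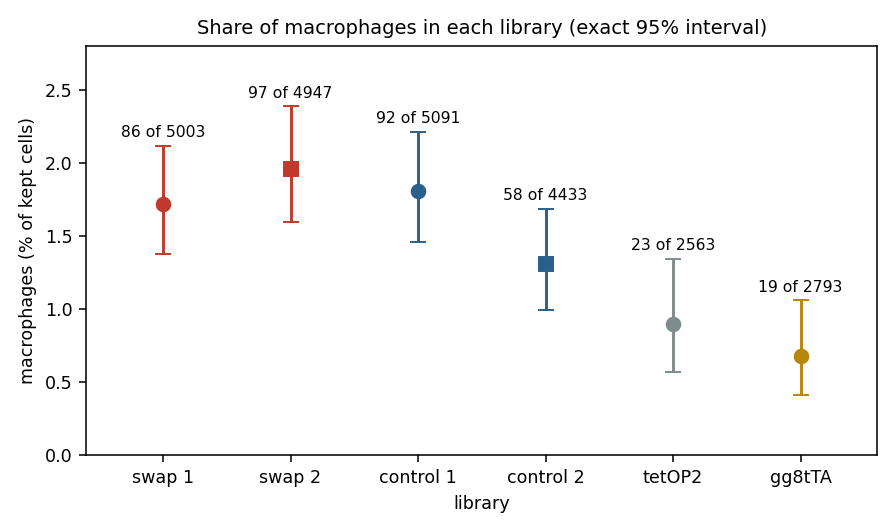
Share of macrophages among kept cells (%, vertical axis) in each library (horizontal axis), with the exact 95% interval as bars and the cell numbers above them. The swap and control libraries lie between 1.31% and 1.96% with overlapping intervals, and tetOP2 and gg8tTA lie lowest at 0.897% and 0.680%.

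The swap libraries averaged 1.84% ± 0.171 macrophages (SD, n = 2), against 1.56% ± 0.353 in control (SD, n = 2). The difference of 0.282 percentage points was smaller than the gap between the control libraries, and control replicate 1 lay between the swap libraries (two-sided exact permutation test, p = 0.667, the smallest possible being 0.33). Against all 4 libraries without the swap, which averaged 1.17% ± 0.496 (SD, n = 4), the difference was 0.667 points (exact permutation p = 0.200, the smallest possible being 0.0667). Fewer barcodes were kept in control replicate 2 (57.5%) than in the other libraries (84.4% to 100%).

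The label of these cells held against genes that the rule did not use. *Trem2*, a lipid-sensing receptor of phagocytes, ranked first among the 20 leading genes, those whose smallest log2 ratio to all other kept cells over the 6 libraries was largest, with 10 CPM added to both sides. It was present at 987 and 1176 CPM in swap, 950 and 1136 in control, 912 in *tetOP2* and 899 in *gg8tTA*, and at 0.455 to 4.27 CPM in the other kept cells. *Csf1r*, the receptor for the survival factor of macrophages, ranged from 924 to 1337 CPM, *Cx3cr1*, the fractalkine receptor, from 731 to 1176 CPM, and *Aif1*, which encodes the actin-bundling protein IBA1, from 863 to 1065 CPM. These 4 genes were high in every library and near 0 in the rest of the tissue.

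The products of the other leading genes were of several kinds. *Ctss* (cathepsin S) and *Cd68* (a lysosomal membrane protein) encode parts of the degradative compartment, and *C3ar1* (the receptor for complement C3a), *Fcgr3* (a receptor for IgG) and *Adgre1* (F4/80) are surface proteins. *Pf4* and *Rgs1* encode a chemokine and a regulator of G protein signalling, and *Cd83* a protein that stabilizes MHC class II on the cell surface. *Apoe*, the apolipoprotein of lipid transport, was the most abundant of the 20 at 35826 ± 10183 CPM (SD, n = 6), against 854 CPM in the other kept cells. *Ms4a7*, *Fcrls*, *Sepp1*, *Ly86*, *Trf* and *AF251705* were also on the list. Its smallest ratio was 4.26 on the log2 scale, for *Rgs1* and *Fcgr3* in swap replicate 2.

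**Figure D2:**
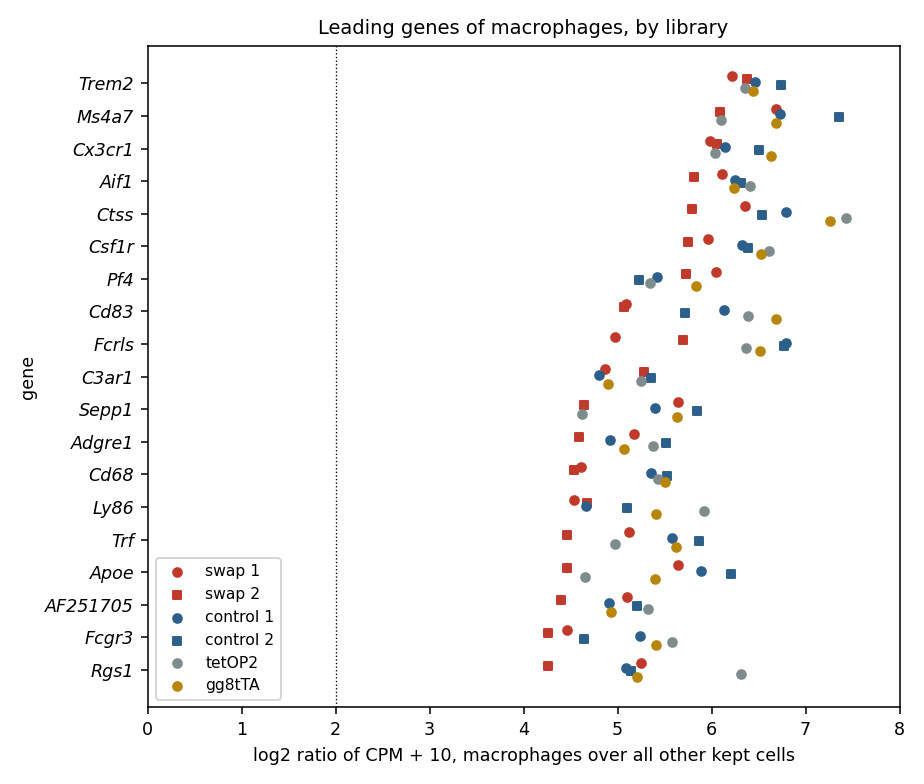
Log2 ratio of CPM + 10 in macrophages over all other kept cells (horizontal axis) for 19 of the 20 leading genes other than the C1q genes (vertical axis), with 1 point for each library and a dotted line at the 4-fold level. The points of the 19 genes lie beyond 4 on this scale in all 6 libraries, with Trem2 at the top.

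Of 14813 genes with a UMI in macrophages, 218 (1.47%) stood at least 4-fold above the other kept cells in all 6 libraries and 189 (1.28%) at least 4-fold below. Genes at low levels cannot reach this ratio with 10 CPM added to both sides. The macrophage identity list, which includes the 3 C1q genes of the rule, held 18 of its 20 genes among the 218, all but *Lyz2* (lysozyme), which neutrophils also express, and *Mertk*, a receptor for dying cells, at 25.2 CPM. The C1q chains themselves averaged 5103 CPM for *C1qa*, 4377 for *C1qb* and 3363 for *C1qc*. Among 10 macrophage transcription factors 6 were 4-fold above, among them *Spi1* (382 CPM), *Maf* (298 CPM), *Irf8*, *Cebpa* and *Irf5*. *Cebpb* was more abundant at 1194 CPM but was also present in the other cells, at 253 CPM.

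Many genes for degradation and iron handling stood above the other cells. In the lysosome list 10 of 16 genes were 4-fold above, with the protease genes *Ctsd* at 3700 CPM and *Ctsb* at 2713 CPM. In the iron and heme list 4 of 8 were 4-fold above. *Ftl1*, the ferritin light chain, averaged 12612 CPM, *Hmox1*, which breaks down heme, 462 CPM, and *Slc40a1*, the iron exporter ferroportin, 294 CPM. Of 13 receptors and bridging molecules for the clearance of dying cells, *Axl* (338 CPM), *Itgb5* (349 CPM) and *Stab1* (208 CPM) were 4-fold above. *Tyro3*, a relative of *Axl*, was 4-fold below at 3.5 CPM.

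Signalling genes were well represented. Of 16 inflammatory cytokine and chemokine genes 9 were 4-fold above, with *Ccl4* at 2198 ± 967 CPM, *Il1b* at 2133 ± 376 CPM and *Ccl3* at 1252 ± 644 CPM (SD, n = 6). Those 3 encode attractants of leukocytes and the cytokine IL-1β. *Il6* and *Il10* averaged only 10.1 and 2.6 CPM. Of 9 growth factor genes *Igf1* (237 CPM), *Tgfb1* (255 CPM), *Osm* (127 CPM) and *Pdgfb* (65.2 CPM) were 4-fold above.

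None of the 12 immediate early genes was 4-fold above the other cells. These genes respond to dissociation, and *Junb* averaged 2383 CPM and *Fos* 1829 CPM in macrophages against 802 and 1329 CPM elsewhere. MHC class II was represented by *Cd74* at 5290 CPM, the invariant chain, and by *H2-Aa* and *H2-Ab1*. The MHC class II list summed to 13221 and 3102 CPM in swap, 7422 and 8160 in control, 14319 in *tetOP2* and 11823 in *gg8tTA*, so that the swap libraries lay at opposite ends of the swap and control values. Genes of resident and perivascular macrophages were mixed, with *Mrc1* (the mannose receptor) at 560 CPM but *Lyve1* at 8.7 CPM and *Folr2* at 15.3 CPM. *P2ry12*, a receptor used as a marker of microglia, averaged 334 CPM and differed widely, from 71.2 CPM in swap replicate 1 to 646 CPM in swap replicate 2.

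Monocyte, dendritic cell and osteoclast genes were low. None of the 8 genes of any of these lists was 4-fold above the other cells, and *Clec9a* of the dendritic cell list and *Oscar* and *Calcr* of the osteoclast list had 0 UMIs in all macrophages. The monocyte list summed to 912 and 871 CPM in swap, 675 and 157 in control, 28.3 in *tetOP2* and 131 in *gg8tTA*. No proliferation gene was 4-fold above, and no gene of the HP1 and H3K9 methylation list was. *Ifi204* was the only interferon-stimulated gene of 10 that was.

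RNA of other cell types was present in small amounts, with exceptions in single libraries. In the mature OSN list 7 of 10 genes were 4-fold below the other cells, and the list summed to 106 to 435 CPM per library in macrophages, led by *Gng13*, against 2597 to 7215 CPM elsewhere. The sustentacular list summed to 182 and 213 CPM in swap, 498 and 541 in control, and 969 and 929 in *tetOP2* and *gg8tTA*, led by *Cbr2*. *Cbr2* is also on the resident and perivascular macrophage list, and carried 719 and 482 CPM of the *tetOP2* and *gg8tTA* sums. The immature neuron list, led by *Stmn2* in 4 of the 6 libraries, summed to 268 to 760 CPM.

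The neutrophil lineage list stood apart in the control libraries. It summed to 20266 CPM in control replicate 1 and 4503 CPM in control replicate 2, against 98.0 and 150 CPM in swap, 266 in *tetOP2* and 143 in *gg8tTA*. *S100a9*, which encodes a subunit of calprotectin, was its most abundant gene in both control libraries, and *Elane*, which marks early neutrophil precursors, had 0 UMIs in all macrophages. The fibroblast list, led by *Col1a2*, reached 4031 CPM in swap replicate 1 and 3536 CPM in *gg8tTA*, with 12.9 to 272 CPM in the other libraries.

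The other lists were lower. The B lineage list summed to 79.1 to 98.9 CPM with *Ms4a1* at 0 UMIs, and the T and NK list to 0 to 22.6 CPM with *Cd8a* and *Nkg7* at 0. The mast cell list reached at most 5.2 CPM, with *Cpa3*, *Mcpt4* and *Cma1* at 0. The erythroid list ranged from 2.9 to 239 CPM, highest in control replicate 2. The endothelial list reached 110 CPM and the ensheathing glia list 512 CPM, both in control replicate 1, and the basal list reached 232 CPM in *tetOP2*, of which *Krt14* carried 125.

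*Cbx1*, the gene whose product the swap replaces, remained detectable in the macrophages of both swap libraries. It had 13 and 18 UMIs in swap, 19 and 16 in control and 4 each in *tetOP2* and *gg8tTA*. This corresponds to 20.6 and 25.8 CPM in swap, 33.1 and 42.5 in control, 22.7 in *tetOP2* and 23.8 in *gg8tTA*. The swap libraries lay below both control libraries, while *tetOP2* and *gg8tTA* lay among the swap values. The UMIs came from 13 and 15 swap macrophages and 15 and 14 control macrophages, with no cell above 3 UMIs.

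The background from free RNA of OSNs and sustentacular cells was read in the same libraries. In swap 15.1% and 15.5% of the macrophages had a *Cbx1* UMI, at a median of 7350.5 and 6867 UMIs per cell. In mature OSNs of the same libraries, gated as below, 2.09% and 3.64% had one at a median of 11423 and 12392 UMIs. The mature OSN list without *Omp* stood in macrophages at 1.63% and 1.09% of its level in OSNs in swap, and at 1.72% and 0.69% in control. The sustentacular list without *Cyp2g1* and *Cbr2* stood at 0.27% and 0.28% of its level in sustentacular cells in swap, and at 1.00% and 1.17% in control. RNA of OSNs at these percentages would carry 0.036 and 0.035 CPM of *Cbx1* into swap macrophages and 1.40 and 1.05 CPM into control macrophages. That of sustentacular cells would carry at most 0.67 CPM in these libraries. In swap both sources held little *Cbx1* themselves, so a low value there was given in advance. Swap B lineage cells (83.0 and 97.1 CPM) and neutrophil lineage cells (29.4 and 33.7 CPM) held more and were not used as sources. Their part in the macrophage UMIs was not tested.

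The fitted log2 fold change of *Cbx1*, swap against control, was -0.66 in macrophages (95% interval -1.67 to 0.35, edgeR adjusted p = 1.00). This interval covers no change as well as a partial loss, which could not be told apart at this depth, but not the size of the difference in OSNs given below. Without the 11 immature neuron-like cells described below, the UMIs were 13 and 18 in swap and 14 and 14 in control, and the log2 fold change was -0.38 (-1.42 to 0.66). Those 11 cells held 0 *Cbx1* UMIs in both swap libraries but 5 and 2 in control.

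*Cbx1* stood far lower in swap than in control in cells of the olfactory epithelium in the same libraries. In mature OSNs, gated as cells with at least 3 *Omp* UMIs, more *Omp* than *Gap43* and few C1q and *Cyp2g1* UMIs, it stood at 2.22 and 3.26 CPM in swap and 81.7 and 152 CPM in control. In sustentacular cells, the supporting cells of the epithelium, it stood at 0.819 and 1.62 CPM in swap and 67.0 and 40.4 CPM in control. The *tetOP2* and *gg8tTA* libraries stood at 43.1 and 39.2 CPM in OSNs and at 47.7 and 38.0 CPM in sustentacular cells. The log2 fold changes were -5.42 (-6.56 to -4.28, edgeR adjusted p = 0.0845) in OSNs and -5.44 (-6.54 to -4.35, adjusted p = 0.0276) in sustentacular cells, called only in the latter, and the swap and control libraries did not overlap in either. The level in swap macrophages was thus 20.6 and 25.8 CPM beside 2.22 and 3.26 CPM in the OSNs of the same suspensions.

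The effect of the swap on *Cbx1* differed between macrophages and mature OSNs. The difference of the log2 fold changes, macrophages minus OSNs, was 4.76 (SE 0.46, 95% interval 3.77 to 5.76, edgeR adjusted p = 6.98e-05, library as block). *Cbx1* was 1 of 29 genes called for such a difference among 13486 tested (0.215%), where a call needed an adjusted p below 0.05 and a log2 difference above 0.58 in size. Against sustentacular cells the difference was 4.82 (3.58 to 6.05, edgeR adjusted p = 7.18e-04), in a comparison added after the values had been seen. Without the immature neuron-like cells the difference from OSNs was 5.08 (4.05 to 6.12). Without the library as block it was 4.82 and was no longer called (edgeR adjusted p = 0.224).

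*Cbx1* was also found in the other leukocytes of the swap libraries, in B lineage cells at a higher level than in macrophages. In neutrophil lineage cells *Cbx1* stood at 29.4 and 33.7 CPM in swap and 28.5 and 34.1 in control, where the groups overlapped. The fit, which scales libraries by TMM and not by their UMI sums, gave a log2 fold change of -0.26 with an interval on both sides of 0 (-0.93 to 0.41). In B lineage cells it stood at 83.0 and 97.1 CPM in swap and 152 and 133 in control, a log2 fold change of -0.63 (-1.25 to -0.01) that was not called (edgeR adjusted p = 1.00). The swap effect in macrophages differed from that in neutrophil lineage cells by -0.42 (-1.42 to 0.58) and from that in B lineage cells by 0.03 (SE 0.44). The B lineage cells shared with macrophages a lower level in both swap libraries than in both control libraries. The *tetOP2* and *gg8tTA* libraries, which lack the swap, stood at 78.9 and 89.5 CPM in B lineage cells, near the swap values.

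*Cbx5*, whose coding sequence the swap allele places in the *Cbx1* locus, had 21 and 33 UMIs in the macrophages of swap, 17 and 9 in control and 4 each in *tetOP2* and *gg8tTA*. Its levels were 33.2 and 47.3 CPM in swap and 29.6 and 23.9 CPM in control, which did not overlap, and the log2 fold change was 0.58 (-0.42 to 1.59, edgeR adjusted p = 1.00). In mature OSNs it stood at 81.3 and 90.2 CPM in swap and 21.1 and 35.4 CPM in control, a log2 fold change of 1.57 (0.82 to 2.31, edgeR adjusted p = 0.308). The difference of these effects, -0.99 (-1.94 to -0.03), did not pass the adjustment in edgeR (adjusted p = 1.00). Leaving out each library in turn, this difference ran from -1.48 to -0.42, and the log2 fold change in macrophages from 0.35 to 0.81. The files name genes by symbol only, so transcripts of the native and of the inserted copy cannot be told apart.

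*Cbx3* (HP1γ), which the allele does not touch, had 53 and 63 UMIs in swap macrophages and 63 and 26 in control, a log2 fold change of -0.05 (SE 0.41). Its values overlapped between the groups. Macrophages carried less *Cbx3* than the neurons, at 69.0 to 125 CPM per library against 183 to 244 CPM in mature OSNs. Among the 11 genes of the HP1 and H3K9 methylation list, 8 were tested in macrophages and none was called for swap against control, with a median log2 fold change of 0.06. *Trim28*, the corepressor that recruits H3K9 methyltransferases, averaged 51.7 CPM, and *Setdb1*, such a methyltransferase, 23.0 CPM.

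**Figure D3:**
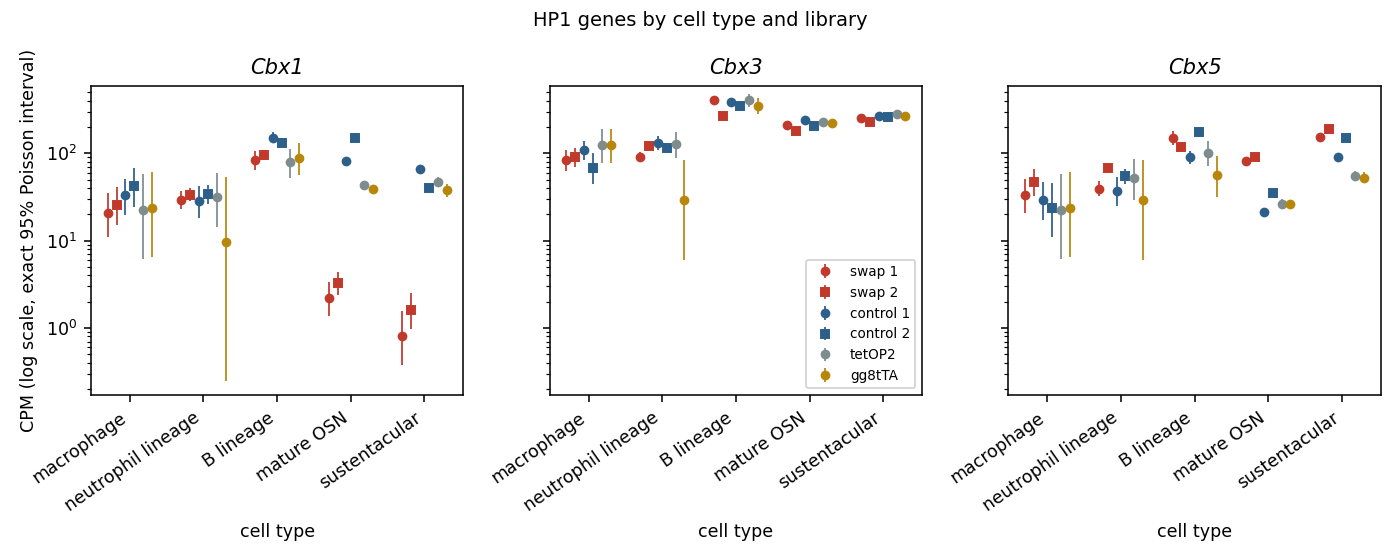
CPM of Cbx1, Cbx3 and Cbx5 (vertical axis, log scale) in 5 gated cell types (horizontal axis), with 1 point for each library and exact 95% Poisson intervals of counting error. In Cbx1 the swap libraries lie between 0.819 and 3.26 CPM in mature OSNs and sustentacular cells, and between 20.6 and 97.1 CPM in macrophages, neutrophil lineage and B lineage cells.

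Detection per cell depends on depth. After thinning each cell to 3000 UMIs, which left out 22 and 29 swap and 34 and 20 control macrophages of lower depth, the share of macrophages with a *Cbx1* UMI had a median of 6.08% over the 6 libraries (3.12% to 15.8%), against 15.1% to 24.1% before thinning. In mature OSNs the same share ran from 0.258% to 36.6% over the libraries. With so few cells, these shares set no order among the macrophages of the 6 libraries.

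Few genes were called in macrophages between swap and control. Of 6500 genes tested by edgeR's quasi-likelihood test on UMIs summed per library, 15 were called (0.231%), 5 higher in swap (0.0769%) and 10 lower (0.154%), and 174 had an unadjusted p below 0.05. Most of the called genes were carried by few cells. The 5 higher in swap were *Ccl5* and *Cxcl10*, both chemokines, *Cfb*, the complement factor B, *Ms4a4c*, a membrane protein, and *Bglap*, the bone matrix protein osteocalcin. The 10 lower in swap were *S100a8*, *S100a9*, *BC100530*, *Gm5483*, *Stfa1*, *Stfa2*, *Stfa2l1*, *G0s2*, *Retnlg* and *Pglyrp1*, among which *S100a8*, *S100a9* and *Retnlg* belong to the neutrophil lineage list.

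*Ccl5* had 475 and 212 UMIs in swap and 4 and 5 in control (log2 fold change 5.76, SE 0.63, edgeR adjusted p = 3.71e-04), with 0 in *tetOP2* and 5 in *gg8tTA*. The swap UMIs came from 10 and 8 cells, and a single cell held 154 of the 475 and 186 of the 212. *Bglap* had 153 and 87 UMIs in swap and 1 and 0 in control (log2 fold change 7.19, SE 0.79, edgeR adjusted p = 3.71e-04). Of these, 149 and 85 came from 1 cell in each swap library, and *gg8tTA*, which has no swap, held 77.

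*Cxcl10* had 107 and 234 UMIs in swap against 19 and 20 in control (log2 fold change 2.59, SE 0.46, edgeR adjusted p = 0.0399), with 67 and 154 in the highest cell of each swap library. *Cfb* had 35 and 62 UMIs in swap, 6 and 1 in control and 0 and 1 in *tetOP2* and *gg8tTA* (log2 fold change 3.29, SE 0.60, edgeR adjusted p = 0.0407). *Ms4a4c* was spread most widely among these 5. It had 58 UMIs in 15 cells and 45 in 17 cells of the swap libraries, against 6 in 6 and 5 in 5 cells of control (log2 fold change 2.74, SE 0.50, edgeR adjusted p = 0.0407).

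The genes lower in swap were carried mostly by 3 control cells. In 2 macrophages of control replicate 1 and 1 of control replicate 2, *S100a8* and *S100a9* made up at least 0.5% of the UMIs of the cell, the limit used to gate neutrophil lineage cells. These cells held 7953 of the 7962 *S100a8* and *S100a9* UMIs of control replicate 1 and 1429 of the 1447 of control replicate 2. *S100a9* had 16 and 14 UMIs in swap against 4375 and 868 in control (log2 fold change -7.77, SE 0.71, edgeR adjusted p = 2.22e-04). *Gm5483* had 64 and 68 UMIs in 1 cell of each control library and 0 in both swap libraries.

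Without the 3 cells, 8 of the 10 genes lower in swap no longer had enough UMIs to be tested, and 2 of 6474 genes were called (0.0309%), *Ccl5* and *Bglap*. The log2 fold change of *S100a9* was then 0.085, and that of *Pglyrp1*, a peptidoglycan-binding protein of granulocytes, -2.93 (edgeR adjusted p = 0.266). The log2 fold changes of *Cxcl10*, *Cfb* and *Ms4a4c* were nearly the same, at 2.56, 3.27 and 2.71 in place of 2.59, 3.29 and 2.74, with an edgeR adjusted p = 0.144 each. The neutrophil lineage list then summed to 2143 CPM in control replicate 1 and 110 CPM in control replicate 2. This alternative was chosen after the data had been seen.

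**Figure D4:**
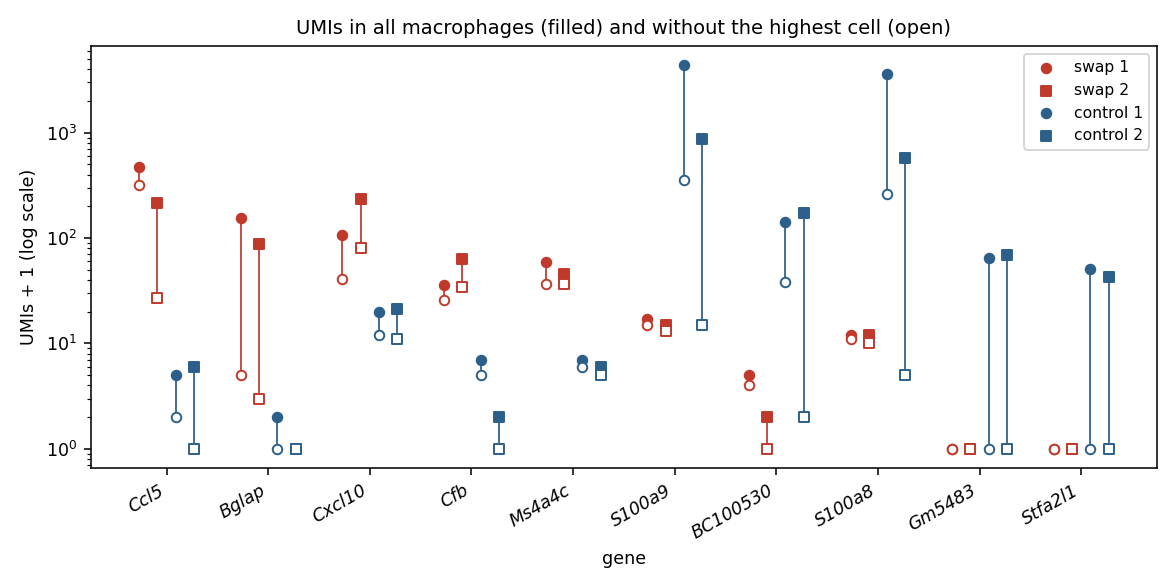
UMIs + 1 (vertical axis, log scale) of 10 genes called between swap and control in macrophages, the leading 5 of either direction (horizontal axis), summed over all macrophages of a library (filled) and without its highest cell (open). Without the highest cell, Bglap in swap falls from 153 and 87 UMIs to 4 and 2, and Gm5483 in control from 64 and 68 to 0.

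No gene was called in most of the lists. In those of macrophage identity (20 genes tested), transcription factors (10), MHC class II (6), lysosome (16), proliferation (7) and immediate early genes (12), no gene outside the rule had even an unadjusted p below 0.05. The median log2 fold changes of these lists lay between -0.17 and 0.15. The identity count and median include the 3 C1q genes of the rule, from whose fits nothing is concluded. *Apoe*, for example, had 20455 and 19365 UMIs in swap and 26783 and 19117 in control (log2 fold change -0.67, SE 0.34, edgeR adjusted p = 1.00). *Csf1r* had a log2 fold change of -0.13 (SE 0.39) and *Trem2* of 0.08 (SE 0.39). The median over all genes tested was 0.01.

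No interferon-stimulated gene was called between swap and control macrophages. Of 7 genes tested, 6 were higher in both swap libraries than in both control libraries, where 846 of the 6500 genes were (13%), and 872 (13.4%) were lower in both. The median log2 fold change of the 7 was 1.75. The list summed to 713 and 491 CPM in swap, 177 and 218 in control, 170 in *tetOP2* and 107 in *gg8tTA*, with the swap libraries above all others. *Isg15*, a ubiquitin-like protein induced by interferon, had 88 and 108 UMIs in swap and 26 and 16 in control (log2 fold change 1.75, SE 0.40, edgeR adjusted p = 0.176), and *Rsad2* had 71 and 16 against 4 and 1 (3.66, SE 0.83, adjusted p = 0.176). A single cell held 49 of the 88 and 54 of the 108 *Isg15* UMIs of the swap libraries, and 25 of the 57 *Ifit3* UMIs of swap replicate 1.

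No monocyte gene was called. Of 5 genes tested, 2 were higher in both swap libraries than in both control libraries, beside 13% of all genes, and the log2 fold changes ran from 1.07 to 2.94 with a median of 1.49. *Fn1* (fibronectin) had 168 and 151 UMIs in swap and 29 and 3 in control (log2 fold change 2.94, SE 0.58, edgeR adjusted p = 0.0720). *Ccr2*, the chemokine receptor that brings monocytes into tissue, had 91 and 123 against 20 and 32 (1.49, SE 0.45, edgeR adjusted p = 0.623). *Ly6c2* had 2 and 50 against 17 and 1, *Plac8* 13 and 138 against 38 and 0, and *S100a4* 303 and 131 against 138 and 22, and in these 3 genes the groups overlapped. Without the 3 cells above, the monocyte list summed to 418 and 153 CPM in control, still below the swap libraries at 912 and 871. The part that a different mix of macrophage types has in these values was not tested.

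In the other direction, the 4 sustentacular genes tested were lower in both swap libraries, beside 13.4% of all genes, with a median log2 fold change of -1.38 and no call. One of them, *Cbr2*, is also on the resident and perivascular macrophage list. The sustentacular list also holds *Cyp2g1*, which the rule limits to fewer than 5 UMIs in a member. The part of the sustentacular genes in the other differences was not tested. *Hmox1* had 196 and 194 UMIs in swap and 342 and 393 in control (log2 fold change -1.44, SE 0.41, edgeR adjusted p = 0.513). Of the remaining lists, the resident and perivascular, clearance receptor, iron and heme, and growth factor lists had medians between -0.29 and 0.10 with no call. In the inflammatory list (15 genes tested) *Cxcl10* was the only call, with a median of 0.06, and the microglia and lipid-associated list (9) had none, with a median of 0.19. The dendritic cell (3), mature OSN (3), immature neuron (6), B lineage (2), erythroid (2) and ensheathing glia (3) lists had no call either, and no gene of the basal, T and NK, mast cell or endothelial lists had enough UMIs. *Col1a1* and *Col1a2*, the 2 fibroblast genes tested, had log2 fold changes of 6.01 and 5.82 and no call. Of the 1160 *Col1a1* UMIs of swap replicate 1, 1148 lay in 1 cell, and swap replicate 2 had 4 UMIs.

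Whether macrophages and mature OSNs differed in their response to the swap was tested for all 13486 genes, with 4 called higher in macrophages (0.0297%) and 25 lower (0.185%). The 4 were *Cbx1*, *Bglap*, *Acp5*, an acid phosphatase of osteoclasts and macrophages and the only osteoclast gene tested in macrophages, and *Col1a1*. *Acp5* had 177 and 89 UMIs in swap macrophages and 56 and 21 in control, in 47 and 22 against 26 and 12 cells. A single cell held 39 and 40 of the swap UMIs, and without it swap replicate 2 had 49. The *Acp5* difference was 4.30, but 0.95 with predicted doublets removed (edgeR adjusted p = 1.00) and 2.82 without control replicate 1. In macrophages alone the log2 fold change of *Acp5* was 1.40 and was not called. Its levels in mature OSNs were low, at 0.714 and 0.148 TMM-scaled CPM in swap against 6.27 and 0.716 in control. Among the 5 leading genes of the 25, *Stfa1*, *Gm5483*, *Pglyrp1* and *Retnlg* were genes also called lower in swap macrophages, and *Wfdc2*, a secreted protein of epithelia, had 132 of its 158 UMIs of control replicate 1 in 1 macrophage. Of these 9 genes, *Cbx1* alone had no macrophage with more than 3 of its UMIs in any swap or control library. It had only 13 to 19 UMIs in each of these libraries, which limits how many a cell could hold.

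The macrophages were not uniform. Leiden clustering of the 375 cells, without the rule genes and *Olfr* genes, gave 8 clusters, whose leading genes are given as a description. Cluster 1 held 82 cells with a median depth of only 1717 UMIs, against 5655 to 12753 in the other clusters, and with leading genes such as *Wwp2*, *Syngr1* and *Apoc1*. It had no cell in *tetOP2* or *gg8tTA*, whose shallowest macrophages had 3981 and 3860 UMIs. In at least 20% of its cells 18 of the 20 identity genes were found, and its immediate early list was the lowest at 345 CPM.

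Clusters 3 and 4 were led by genes of other tissues and by chemokines. Cluster 3, the largest with 112 cells, had *Wfdc18*, *Cxcl9*, *Dmbt1*, *Bpifa1* and *Ltf* among its leading genes by level. *Cxcl9*, *Dmbt1* and *Ltf* were found in 2.7%, 3.6% and 7.1% of its cells. *Bpifa1*, a secreted protein of airway epithelium, was found in 43.8% of its cells and in 35.4% of the other macrophages, and *Wfdc18* in 20.5% and 17.1%. Its interferon-stimulated list summed to 609 CPM, with 2 of the 10 genes found in at least 20% of its cells, against 369 CPM and 4 genes in cluster 2. Cluster 4 held 43 cells and was led by collagen genes from few of them, *Col1a1* being found in 20.9%. The chemokines *Ccl7*, *Ccl24* and *Ccl2*, also among its 10 leading genes, were found in 55.8%, 39.5% and 74.4% of the cells. *Fabp7* of the ensheathing glia list, *Bglap2* and *Cldn5* of the endothelial list ranked between them, found in 14.0%, 4.7% and 4.7%. *Mrc1* was found in 90.7% and *Lyve1* in 11.6%, and the resident and perivascular list was highest here at 6450 CPM.

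Cluster 5 carried genes of iron-recycling macrophages. Its 30 cells carried *Vcam1*, an adhesion molecule, in 100% of the cells, *Slc40a1* in 96.7%, *Fcna* in 93.3%, *Timd4*, a receptor for phosphatidylserine on dying cells, in 80.0% and *Spic*, a transcription factor needed for red pulp macrophages of the spleen, in 66.7%. *Slc40a1* stood at 2357 CPM in these cells against 125 CPM in the other macrophages. The 8 iron and heme genes were each found in at least 20% of the cells, more than in any other cluster. The inflammatory list was low at 1532 CPM. The same 30 cells came together in all 4 other clusterings tried. Cluster 5 made up 4.7% and 14.4% of the macrophages in swap, 5.4% and 8.6% in control, 4.3% in *tetOP2* and 5.3% in *gg8tTA*.

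Cluster 6 held 11 dividing cells with *Birc5* in 100% and *Top2a* and *Mki67* in 72.7%, which encode a mitotic survivin, a topoisomerase and a proliferation antigen. All 10 proliferation genes were found in at least 20% of these cells. They came from swap (3 and 2 cells) and control replicate 1 (6 cells) only.

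Cluster 7 was microglia-like. *P2ry12* and *Tmem119* were found in 100% of its 30 cells, *Siglech* in 93.3% and *Sall1*, the transcription factor of microglia, in 66.7%, against at most 27.3% for *Sall1* in any other cluster. *H2-Aa* and *H2-Ab1* had 0 UMIs in all 30 cells, and *Mrc1* was found in 6.7%. Its immediate early list was the highest at 24813 CPM, with *Egr1* in 100% of the cells. Of the 30 cells, 20 came from swap replicate 2, where they made up 20.6% of the macrophages, 4 from *tetOP2* (17.4%), and 1, 3 and 2 from swap replicate 1 and the control libraries (1.2%, 3.3% and 3.4%). The cluster thus varied more between the swap libraries than between swap and control.

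Cluster 8 went against the label. Its 11 cells passed the C1q limit with a median of 20 C1q UMIs, but were led by *Sox11*, *Stmn2*, *Gap43*, *Tubb3* and *Lhx2*, and all 8 immature neuron genes were found in at least 20% of them, so they are called immature neuron-like. As in cluster 1, 18 of the 20 identity genes were found in at least 20% of the cells. *Trem2* was found in 27.3% of the cells against 92.7% in cluster 1, and *Aif1* in 63.6% against 91.5%. *Ctss* was found about as widely, in 90.9% against 90.2%. The macrophage identity list of these 11 cells stood at 6442 CPM, against 26341 to 41810 CPM in the other clusters, and their median depth of 12753 UMIs was the highest. None of them was among the predicted doublets. They were spread over all libraries with 1 to 3 cells each.

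Cluster 2 was led by *S100a8*, *S100a9*, *Camp* and *Ngp* from few of its 56 cells. The MHC class II genes *Cd74* and *H2-Aa* were found in 91.1% and 75.0% of the cells, and *Ccr2* of the monocyte list in 66.1%. Some of its leading genes, among them *S100a8* and *S100a9*, were called between swap and control. Cluster 2 was therefore compared in size after clustering again without the 15 called genes and the 3 cells above. It was then matched by 28 cells led by *Saa3*, *Plac8*, *Ly6c2*, *Ccl17* and *Fn1*, with *S100a4* also among the 10 leading genes. These included 4 genes of the monocyte list. They made up 11.6% and 15.5% of the macrophages in swap (10 and 15 cells), 2.2% and 1.8% in control (2 and 1 cells) and 0% in *tetOP2* and *gg8tTA*. The mean share was 11.6 percentage points higher in swap than in control. In clusterings that kept the called genes, this difference ran from 10.2 points (resolution 0.8) to 21.6 points (resolution 0.3).

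Cluster 3 ran the other way. In the clustering without the called genes it made up 16.3% and 13.4% of the macrophages in swap, 25.6% and 43.9% in control, 52.2% in *tetOP2* and 57.9% in *gg8tTA*, 19.9 percentage points lower in swap than in control. With the called genes kept, the difference was -26.2 points in the main clustering and -30.6 points with predicted doublets removed. At resolution 0.8 cluster 3 had no match. The 4 libraries without the swap lay above both swap libraries, and with 2 libraries against 2 no share can give an exact permutation p below 0.33. These shares add up to the whole within a library, so a larger cluster 2 and a smaller cluster 3 are not independent.

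**Figure D5:**
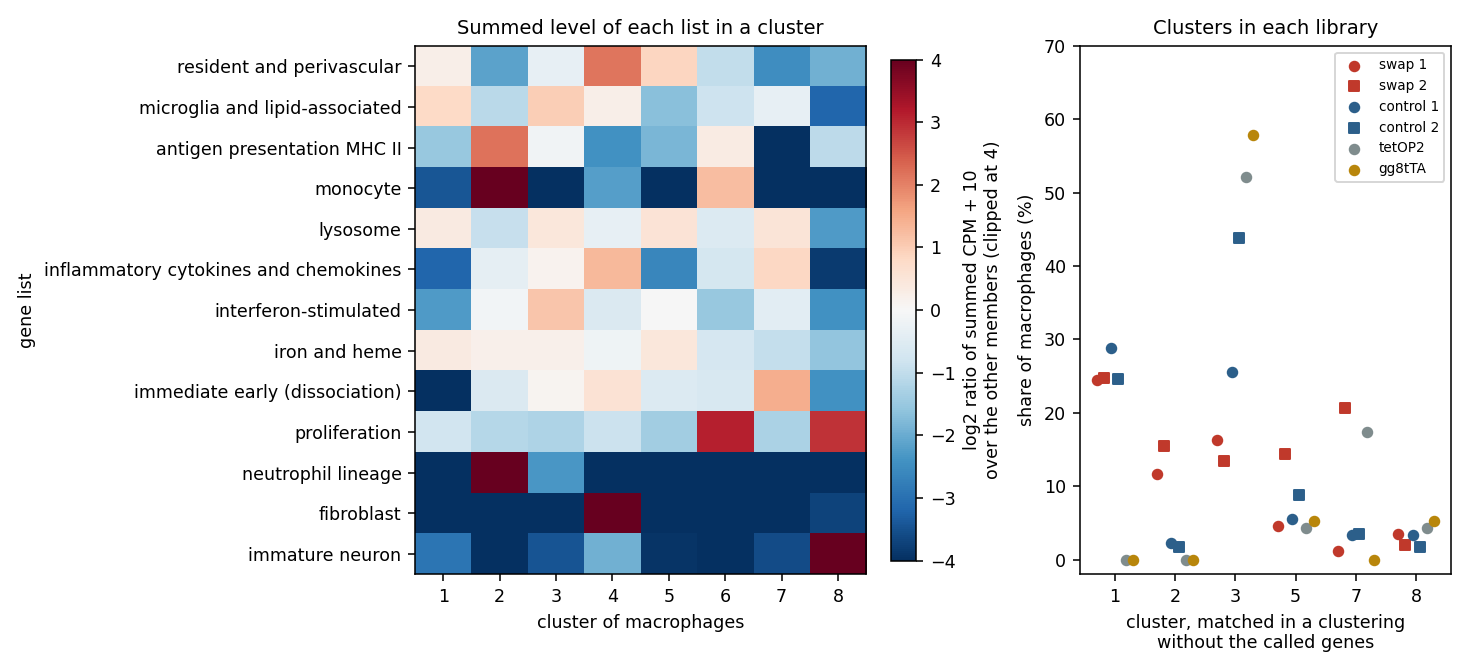
Left, the log2 ratio of the summed CPM + 10 of 13 gene lists (rows) in each of the 8 clusters of macrophages (columns) to the other members, clipped at 4. Right, the share of a library's macrophages (%, vertical axis) in the 6 clusters that were matched one to one after clustering without the called genes (horizontal axis), where cluster 2 lies at 11.6% and 15.5% in swap and at 2.2% or below in all other libraries.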

How the data were processed

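Olfactory epithelia were dissociated with papain and captured on the 10X Genomics Chromium platform, per the study's methods, which describe no sort for these libraries although the series' design text mentions one. The authors deposited UMI counts per gene symbol and barcode, made with Cell Ranger with introns included, and the submitters' processing notes name mm10. These counts (24564 genes) were used as deposited, 1 matrix for each of 6 libraries. Part of the genotype labels and some genes are not reported here.

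The members, gene lists and tests were chosen with earlier results of these data known. Cells were gated by UMIs. The gates for comparison all required fewer than 5 C1q UMIs, with an *Omp* count of at least 3 that exceeded *Gap43* for mature OSNs, at least 5 *Cyp2g1* UMIs for sustentacular cells, at least 0.5% of UMIs from *S100a8* and *S100a9* for the neutrophil lineage, and at least 3 *Cd79a* and 1 *Cd79b* UMIs for the B lineage. Doublets were predicted per library by Scrublet in scanpy 1.11.5, taking the highest scores at 0.8% per 1000 cells, and kept.

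UMIs were summed per library and cell type and tested by edgeR 4.0.16 (R 4.3.3) with filterByExpr, TMM and the quasi-likelihood test, with calls made where the p adjusted by Benjamini-Hochberg was under 0.05 and the log2 fold change exceeded 0.58 either way. Swap against control had no block, and the difference of effects between cell types had the library as block. On simulated counts with 200 changed genes, the first fit recovered 121 with 2 false calls (6500 genes; 4, 23, 46 and 48 of 50 at 2, 4, 8 and 16-fold) and the second 68 with 0 (13486 genes; 2, 14, 24 and 28 of 50). These counts were drawn per library, with no gene carried by a single cell, so they give no rate of false calls for such genes. Ratios to other kept cells used a pseudocount of 10 CPM. Clustering used 1000 variable genes, 20 principal components, 15 neighbours and Leiden (leidenalg 0.10.2) at resolution 0.5. Shares were compared by exact permutation over libraries (scipy 1.17.1). A gene or list found at 0 UMIs is limited by counting error, with up to 3 counts allowed.

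Named were the rule genes, the HP1 genes, the most abundant or called members of each list, the 20 leading genes of at least 50 CPM, the 5 called genes in each direction with the lowest adjusted p, and the 10 leading genes of each cluster. Genes named beyond this were chosen after their values were seen. *Ighm* and *Trbc2* of the lists were not among the symbols of the files. Alternatives were other gates, filters, normalizations and blocks, DESeq2 1.42.0, and leaving out each library. Those without the *S100a8* and *S100a9* cells, without a cluster, or clustered without the called genes were chosen after seeing the data.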

Additional observations from a re-analysis of the deposited data

Results flagged for a closer look

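For 29 genes the effect of the swap differed between macrophages and mature OSNs by the test of the difference itself. The 4 higher in macrophages and the 5 leading genes of the 25 lower are listed here, and both cell types come from the same suspensions. The values are log2 differences, macrophages minus OSNs, from edgeR with Benjamini-Hochberg adjustment, and levels here are TMM-scaled CPM. *Cbx1* differed by 4.76 (edgeR adjusted p = 6.98e-05), with 22.6 and 25.9 CPM in the macrophages and 2.14 and 3.18 CPM in the OSNs of the swap libraries.

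*Bglap* differed by 8.45 (edgeR adjusted p = 1.47e-05), with 149 of 153 and 85 of 87 UMIs of the swap libraries in 1 macrophage each. *Acp5* differed by 4.30 (adjusted p by edgeR 0.00966), and by 0.95 with predicted doublets removed. In OSNs *Acp5* stood at only 0.714 and 0.148 CPM in swap against 6.27 and 0.716 in control. *Col1a1* differed by 5.37 (adjusted p by edgeR 0.0308), with 1148 of 1160 UMIs of swap replicate 1 in 1 macrophage. Over the left-out libraries the *Col1a1* difference ran from 1.38 to 6.05.

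In the other direction *Stfa1* differed by -9.94 (edgeR adjusted p = 8.16e-07), *Gm5483* by -15.72 (1.11e-05), *Pglyrp1* by -6.73 (1.47e-05), *Retnlg* by -6.22 (3.59e-05) and *Wfdc2* by -5.32 (3.59e-05). In control macrophages the highest cell held 62 of 85 and 120 of 122 *Stfa1* UMIs, all 64 and 68 *Gm5483* UMIs, 34 of 69 and 10 of 18 *Pglyrp1* UMIs, 29 of 31 and 223 of 223 *Retnlg* UMIs, and 132 of 158 and 20 of 24 *Wfdc2* UMIs. Since *Gm5483* was at 0 UMIs in the swap macrophages, its fitted difference is no measure of size. In mature OSNs *Stfa1* stood at 146 and 16.2 CPM in swap against 5.98 and 4.79 in control, *Pglyrp1* at 65.8 and 35.6 against 6.93 and 4.68, and *Wfdc2* at 110 and 58.3 against 21.0 and 12.8. *Retnlg* did not separate the groups in OSNs, at 16.2 and 24.3 CPM in swap against 8.17 and 55.5 in control. In mature OSNs alone no gene was called between swap and control, so these OSN levels are given as a description. The neutrophil lineage gate held more cells in each swap library than in either control library. The part that RNA of those cells has in the OSN levels was not tested.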

How the results depend on the processing

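The numbers of called genes depended strongly on the settings. Against 15 genes called between swap and control in macrophages, 2 were called with a C1q minimum of 10, 2 without the 3 *S100a8* and *S100a9* cells, 122 with no filter on low counts and 1 for the 2 swap against the 4 libraries without the swap, and DESeq2 called 18. Leaving out a library gave 69 (swap replicate 1), 76 (swap replicate 2), 83 (control replicate 1) and 124 calls (control replicate 2), where the lone library is assumed to vary like the other group. Against 29 genes called for a difference from OSNs, 44 were called with a C1q minimum of 3, 131 with no filter on low counts and 0 with no library block, where 430 had an unadjusted p below 0.05 in edgeR. DESeq2 called 23, and leaving out a library gave 78 (swap replicate 1), 42 (swap replicate 2), 24 (control replicate 1) and 94 calls (control replicate 2).

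The *Cbx1* difference from OSNs ran from 4.48 to 5.02 over the left-out libraries, called in each. With no library block it was 4.82 and not called (edgeR adjusted p = 0.224). The *Cbx1* fold change in macrophages ran from -0.80 to -0.53 on the log2 scale over the left-out libraries. It was -0.38 without the immature neuron-like cluster and -0.46 for the 2 swap against 4 libraries, and was not called in any setting run. Without the *S100a8* and *S100a9* cells the log2 fold change of *S100a9* was 0.085 in place of -7.77 and the difference of *Retnlg* was 1.61 in place of -6.22. *Bglap* had a log2 fold change of 0.76 when *tetOP2* and *gg8tTA* joined the control libraries, and *Ccl5* was called in every setting run. With a pseudocount of 1 CPM 446 genes were at least 4-fold above the other cells, against 218. The share difference stayed positive, and fell to 0.0328 points without control replicate 2. The other values of the main results, 134 in all, kept their direction and call, as did 244 for single genes, and 53 for single genes lost their call. The cause of these changes was not tested. Clusters 3, 4 and 6 could not be matched in some of the other clusterings and have no value there.

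With replicate number as a replicate block, 25 genes were called between swap and control, 11 higher and 14 lower in swap, and in place of the library as block it gave 3 calls for the difference from OSNs, *Cbx1* among them. The labels do not say what a number shares. Deviations of swap and control macrophages with the same number had a Pearson correlation of 0.32 over 6500 genes, which with 2 pairs does not establish that they were paired. One feature was shared by number: *H2-Eb1* stood at 108% and 107% of *H2-Ab1* in the macrophages of the libraries numbered 1, and at 1.90% and 1.40% in those numbered 2.

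Depth limits what can be read here: *tetOP2* and *gg8tTA* had 23 and 19 macrophages, *Cbx1* rested on 4 to 19 UMIs per library, and only 2 libraries stood in each group, 1 of them female in swap and none in control. The controls carry either the allele or the Cre, so the effect of the Cre with the allele cannot be told apart from that of these differences.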

Other observations

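*H2-Eb1*, a MHC class II gene, split the libraries in a way that no group label gives. It encodes the beta chain of I-E and had 1368 UMIs in the macrophages of swap replicate 1, 709 in control replicate 1 and 157 in *tetOP2*, but 9 in swap replicate 2, 9 in control replicate 2 and 5 in *gg8tTA*. *H2-Ab1*, the beta chain of I-A, was present in all of them, with 1261, 665 and 359 UMIs in the former libraries and 473, 645 and 293 in the latter. *H2-Eb1* thus stood at 108%, 107% and 43.7% of *H2-Ab1* in the former and at 1.90%, 1.40% and 1.71% in the latter. In swap and control the split followed the replicate number, with the libraries numbered 1 high and those numbered 2 low.

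The same libraries were higher in B lineage cells, where *H2-Eb1* stood at 211, 95.2 and 35.4 CPM in the former libraries and at 20.9, 15.3 and 0 CPM in the latter. These were 63.1%, 47.8% and 17.1% of *H2-Ab1* against 4.66%, 8.18% and 0%. The 95% counting interval of *tetOP2* (18.8 to 60.5 CPM) overlapped that of swap replicate 2 (15.4 to 27.8 CPM) in these cells. This split was noticed after the values were seen, and its source was not tested.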
